A study of Homo sapiens with 2 samples.

Results

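Chemokines are small secreted proteins that guide leukocytes along a gradient, and the 10 chemokine genes described here were taken from 19775 genes measured in FaDu cells, a line derived from a squamous carcinoma of the human pharynx. They were chosen with the differences between these arrays known, by naming CXCL1, CXCL2, CXCL3, CXCL5, CXCL6, CXCL8 and CCL20 on 1 side and CCL5, CXCL10 and CXCL11 on the other, and by taking every probe set annotated to a single one of these genes. The direction of each side is therefore a description of how the members were picked and not a result. The 7 and the 3 genes are covered by 12 and 6 probe sets. The compared cells were FaDu stably transduced with a lentivirus carrying GLUT4, the insulin-responsive glucose transporter, and FaDu stably carrying the control vector. Both populations had been selected with puromycin, and whether each was a single clone or a pool, and which promoter drove GLUT4, was not found in the labels or the methods. Of each, RNA went onto 1 array of the Affymetrix Human Genome U133 Plus type, so no replicate check and no test are possible. Every difference is given on the log2 scale, as GLUT4 minus vector, and it covers every way in which both populations differed. Transcripts per cell and the share of cells that express a gene cannot be told apart in such bulk RNA.

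The CXC chemokines that carry a glutamate-leucine-arginine motif ahead of their cysteines, CXCL1, CXCL2, CXCL3, CXCL5, CXCL6 and CXCL8, bind CXCR2 on neutrophils, and CXCL6 and CXCL8 also bind CXCR1. Epithelial cells make them after stimulation by interleukin-1, tumour necrosis factor or interleukin-17, through NF-kappaB. CCL20 is listed with them although it attracts lymphocytes and dendritic cells that carry CCR6. CXCL10 and CXCL11 bind CXCR3 on activated T cells and are induced by interferons, and CCL5, which attracts T cells and monocytes, is induced by both NF-kappaB and interferon regulatory factors.

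Because the members share known inducers, the stretch before their start sites is shown first. Of the 10 genes, 9 have an entry in the RefSeq promoter table of build GRCh38.p14, which runs from 250 bases before to 50 bases after the start. CCL5 has none. The letters searched on both strands as a kappaB site were GGG, any pair of bases and then TTTCC, or GGAATTTCC, which overlap where a site holds both, and they were written down with known sites of these genes in mind. All 9 promoters held such letters, against 2.23% of 35116 promoters and 0 of 28 promoters of other chemokine ligands. The following windows of 60 bases, each printed 5′ to 3′ on the strand of its gene, were chosen because they set CXCL3, the gene with the largest difference, beside its close copies CXCL1 and CXCL2, beside CXCL8, which was also higher, and beside CXCL5, CCL20 and CXCL11, which stayed within 1.5-fold. Capitals mark the kappaB letters.
CXCL3, chr4:74038729-74038788, minus strand: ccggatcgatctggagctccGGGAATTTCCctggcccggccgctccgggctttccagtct
CXCL1, chr4:73869294-73869353, plus strand: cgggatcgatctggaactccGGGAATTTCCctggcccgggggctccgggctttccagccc
CXCL2, chr4:74099234-74099293, minus strand: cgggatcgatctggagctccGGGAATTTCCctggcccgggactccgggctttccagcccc
CXCL5, chr4:73998729-73998788, minus strand: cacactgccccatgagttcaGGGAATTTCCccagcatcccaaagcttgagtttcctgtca
CXCL8, chr4:73740458-73740517, plus strand: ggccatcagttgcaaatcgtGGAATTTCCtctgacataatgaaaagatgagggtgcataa
CCL20, chr2:227813743-227813802, plus strand: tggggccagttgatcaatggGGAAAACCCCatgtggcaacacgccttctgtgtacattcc
CXCL11, chr4:76036106-76036165, minus strand: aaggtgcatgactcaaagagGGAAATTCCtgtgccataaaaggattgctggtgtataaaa

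The CXCL1, CXCL2, CXCL3, CXCL5 and CXCL6 promoters held the same 10 letters, GGGAATTTCC, which stood on either strand in 0.145% of all promoters. The site began at -79 in CXCL1 and CXCL3, at -78 in CXCL2, at -91 in CXCL5 and at -90 in CXCL6, counted from the base before the start as -1. Around it, the CXCL1, CXCL2 and CXCL3 promoters shared an unbroken run of 23 bases, ctccGGGAATTTCCctggcccgg, and those of CXCL5 and CXCL6 a run of 45. Over the whole 300 bases CXCL3 was 82.5% identical to CXCL1 and 73.8% identical to CXCL2, and CXCL5 was 83.1% identical to CXCL6. In CXCL8 the letters began at -91, and an AP-1 site (TGANTCA, found in 7.71% of promoters) began further upstream, at -137. In CCL20, CXCL10 and CXCL11 they stood on the opposite strand, from -79, -176 and -75. An AP-1 site was also present in CXCL11, at -87.

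The interferon-stimulated response element was searched as GAAA, any pair of bases and GAAA again, on both strands, which 3.57% of promoters held. Among the members it was found in CXCL10 alone, at -221, and no match in CXCL11 says only that these letters are not in its window. The CXCL10 stretch is shown because it holds both kinds of letters, with the response element as the capitals on the left and the kappaB letters as those on the right.
CXCL10, chr4:76023648-76023737, minus strand: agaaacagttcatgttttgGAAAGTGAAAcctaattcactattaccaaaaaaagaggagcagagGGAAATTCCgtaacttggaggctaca
Letters in a window are a description and do not show that a factor bound there.

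CXCL3, a neutrophil attractant also known as a GRO protein, had an intensity of 529.7 with the vector and 3479 with GLUT4. The log2 difference of 2.72, or 6.57-fold higher with GLUT4, was the largest of all 54675 probe sets. A single probe set measures CXCL3, so this value has no second reading on the arrays.

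CXCL1 and CXCL2, the close copies of CXCL3, were higher by far less. CXCL1 read 2019.5 with the vector and 3172 with GLUT4, 1.57-fold higher. CXCL2 read 5864 and 9866 on its brightest probe set, 1.68-fold higher. The differences of CXCL1 and CXCL2 lay 0.10 apart on the log2 scale, whereas CXCL3 lay 2.06 above CXCL1 and 1.96 above CXCL2. For scale, the gap between the log2 differences of a gene's brightest pair of probe sets had an SD of 0.29 over 10518 other genes. This SD covers the spread between probe sets and not that between cultures.

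The reading of CXCL2 rested on 1 probe set. Its name ends in x_at, which the manufacturer gives to probe sets with probes that can also match other transcripts. Signal from CXCL1 or CXCL3 in it was not tested, since no probe sequences were used. The other CXCL2 probe sets were dim, at 39.6 and 47.3 on the first and 20.8 and 22.5 on the second, with differences of 0.26 and 0.12. All readings of CXCL2 lay above 0, but these dim ones stayed within 1.5-fold.

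CXCL8, interleukin-8, the best known neutrophil attractant, was higher on both of its probe sets. The brighter read 4488 with the vector and 8309 with GLUT4, 1.85-fold higher. The other read 1666 and 3617, 2.17-fold higher. Their log2 differences of 0.89 and 1.12 lay 0.23 apart, within the SD of 0.29 between probe sets of a gene. Both names end in x_at or s_at, so no CXCL8 value is left without such probe sets.

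CXCL5 and CXCL6, which bind the same receptor, gave almost no signal on either array. CXCL6 read 7.69 and 7.72. CXCL5 read 9.06 and 9.97, 8.10 and 9.37, and 5.06 and 6.21 on its 3 probe sets, whose differences ran from 0.14 to 0.30. These intensities lie far below 39.6, the median over all probe sets, and at such levels the differences were within 1.5-fold. Detection calls were not used, so these values do not show whether the genes were expressed at all. The kappaB letters printed above for CXCL5 are those of CXCL3.

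CCL20, the ligand of CCR6, was among the brightest genes on both arrays and did not pass 1.5-fold. It read 14678 with the vector and 14729 with GLUT4 (0.00 on the log2 scale), and 180 of 54675 probe sets were brighter on the vector array. Its difference kept within 0.03 of 0 under every alternative run.

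**Figure D1:**
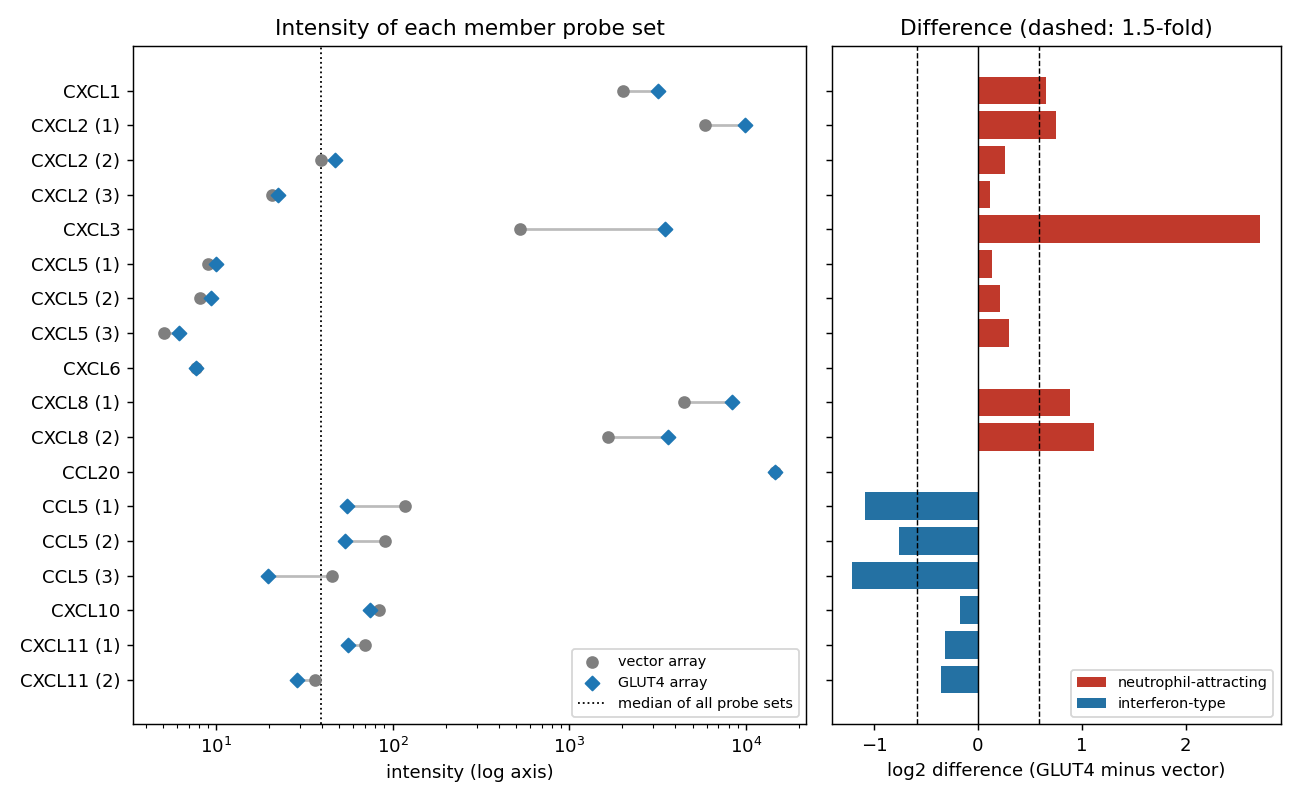
Left, the intensity of each of the 18 member probe sets on the vector array (grey circles) and the GLUT4 array (blue diamonds), on a log axis, numbered from the brightest where a gene has several. The dotted line is the median of all probe sets. Right, the log2 difference of each, with dashed lines at 1.5-fold. The CXCL3 pair is the widest apart, the CXCL5 and CXCL6 pairs lie to the left of the dotted line, and intensities of different probe sets cannot be set against each other.

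Counted together, 4 of the 7 genes on this side were more than 1.5-fold higher at their brightest probe set and none was lower, with a median log2 difference of 0.65. Over all 19775 genes the share more than 1.5-fold higher was 1.84%, with a median of -0.02. Since the members were picked from this contrast, nothing is read from that gap. At probe set level 5 of 12 passed, where the share over all probe sets was 2.04%. When the probe sets of each gene were averaged, the median of these 7 genes was 0.37, and without the probe sets named x_at or s_at it was 0.28 over the 6 genes left. The count of genes past 1.5-fold was then 2, CXCL1 and CXCL3, since CXCL8 had no such probe set and CXCL2 was at 0.26.

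**Figure D2:**
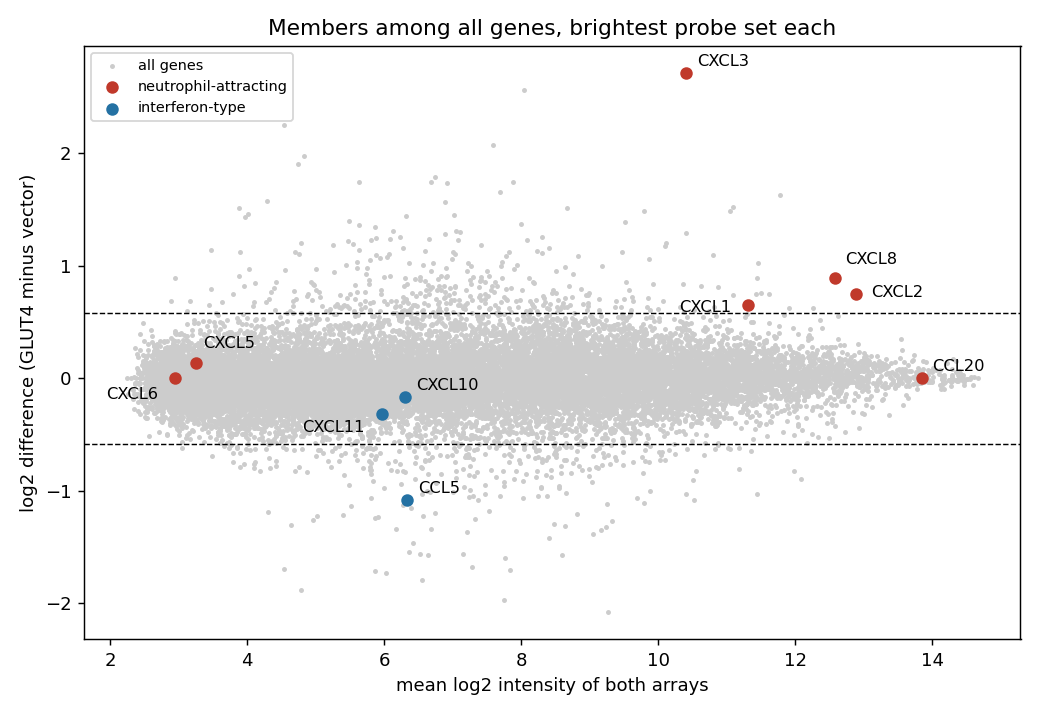
The log2 difference (vertical axis, GLUT4 minus vector) against the log2 intensity averaged over the arrays (horizontal axis) for 19775 genes at their brightest probe set (grey), with the members in red (neutrophil-attracting) and blue (interferon-type) and dashed lines at 1.5-fold. CXCL3 is the highest point at 2.72, CCL20 lies at the bright end at 0.00, and CCL5 is the member past the lower line.

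On the other side, CCL5, also called RANTES, was lower with GLUT4 on each of its 3 probe sets. The brightest read 117 with the vector and 55.4 with GLUT4, 2.12-fold lower. The second read 90.8 and 53.7, 1.69-fold lower, and the third 45.7 and 19.8, 2.31-fold lower. Their log2 differences were -1.08, -0.76 and -1.21, so the widest gap between them was 0.45. These are modest intensities, and after adding 32 to all intensities, an offset that shrinks the differences of dim probe sets, the brightest came to -0.77, still past 1.5-fold, the second to -0.52, within it, and the third to -0.59, at its edge. With that offset 2 of the 3 probe sets were past 1.5-fold. At its brightest probe set CCL5 stood at rank 45 of 19775 genes counted from the most lowered.

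CXCL10 and CXCL11, the CXCR3 ligands, differed little. CXCL10 read 84.1 and 74.8, a log2 difference of -0.17. CXCL11 read 70.0 and 56.1 on its brighter probe set and 36.6 and 28.6 on the other, with differences of -0.32 and -0.35. Neither gene passed 1.5-fold on any probe set or under any of the alternatives run. CCL5 lay 0.76 below CXCL11 and 0.91 below CXCL10 at the brightest probe sets. CXCL9, the remaining ligand of CXCR3 and no member, lay on the opposite side of 0, at 34.5 and 47.0 with a difference of 0.45, within 1.5-fold.

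Thus 1 of the 3 interferon-type genes was more than 1.5-fold lower, against 1.55% of all genes, a share that comes from the contrast by which the genes were picked. By probe sets the count was 3 of 6, all of CCL5, against 1.22% of all probe sets. The median of the 3 genes was -0.32. All of their 6 probe sets had differences below 0. All 12 on the other side had differences above 0, except that CCL20 came to -0.02 after quantile or loess scaling. Over all 54675 probe sets 28175 were below 0 and 26497 above, and the sides were picked from this contrast. The 12 include CCL20 at 0.00, CXCL6 at 0.01 and the dim CXCL5, for which the sign says little. The gap between the medians of both sides was 0.97, and it was 0.63 without probe sets named x_at or s_at and 0.71 with averaged probe sets.

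CCL5 is also made by T cells and natural killer cells. Of 11 leukocyte markers at their brightest probe sets, 8 had differences below 0. Among them 1 was more than 1.5-fold lower, against 1.55% of all genes. This was CD14, a monocyte gene, at 251 and 143, which made up most of the change in their summed intensity from 621 to 468. ITGB2, another leukocyte gene, came to -0.42 on its brightest probe set. A dimmer ITGB2 probe set read 68.9 and 28.5 (-1.27), past 1.5-fold, and the remaining one came to 0.23. The pan-leukocyte gene PTPRC read 8.30 and 8.14 and NKG7, a gene of cytotoxic cells, read 24.5 and 23.5, all below the median of all probe sets, and CD3D read 59.2 and 57.2. Of 6 neutrophil markers none passed 1.5-fold, against 1.84% of all genes higher and 1.55% lower, and 2 were above the median signal. The part of such cells in the CCL5 values was not tested. Of 10 markers of squamous epithelium, 7 were measured and all of these were above the median signal, 3 with differences above 0 and 4 below. KRT5 read 11024 and 13093 and SFN 11921 and 11894. KRT14 was more than 1.5-fold higher (1963 to 3985), against 1.84% of all genes. EPCAM was more than 1.5-fold lower (5361 to 3020.5), against 1.55% of all genes. CDH1 read 3223 and 2224 (-0.54), lower but within 1.5-fold. Of 6 fibroblast markers, DCN (482 to 1050.1) and LUM (38.5 to 79.9) were more than 1.5-fold higher, against 1.84% of all genes. The other 4 fibroblast markers lay between 0.01 and 0.20. Their summed intensity with DCN and LUM went from 834 to 1459, and DCN made up most of that change. LUM came to 0.32, within 1.5-fold, without probe sets named x_at or s_at. Of 5 endothelial markers 1 was more than 1.5-fold lower, against 1.55% of all genes. This was PECAM1, an adhesion gene that leukocytes and platelets also express, at 141 and 48.2 (-1.55). It came to -0.81 when its 5 probe sets were averaged. The other 4 endothelial markers lay between -0.17 and 0.19, with KDR at 6.32 and 6.84 and CDH5 at 19.1 and 17.0. The part of these differences in the chemokine values was not tested. SLC2A4, which encodes GLUT4, read 28.3 and 32.6, and whether its probe set detects the introduced sequence was not determined, so it does not check the labels.

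On chromosome 4, where 8 of the 10 members lie, RefSeq places 56 genes from CXCL8 to CXCL11, and 30 of these were measured. The measured chemokine genes follow each other as CXCL8, CXCL6, PF4V1, CXCL1, PF4, PPBP, CXCL5, CXCL3 and CXCL2, and CXCL9, CXCL10 and CXCL11 stand at the far end. None of the 22 measured genes that are no members passed 1.5-fold in either direction. Over all genes 1.84% were higher and 1.55% lower, so none among so few genes is near those shares. Their differences ran from -0.45 to 0.48 with a median of 0.06. The platelet chemokine genes PF4V1, PF4 and PPBP, which lie among the neutrophil-attracting genes, were dim, at 39.2 or less on both arrays. On the side of CXCL2 away from CXCL3, the nearest measured protein-coding neighbours were MTHFD2L, EREG and BTC. MTHFD2L, a mitochondrial folate enzyme, read 632 and 778 (0.30). EREG, an epidermal growth factor family ligand, read 2046 and 2713 (0.41), and came to 0.21 when its probe sets were averaged. BTC, another such ligand, read 44.3 and 61.8 (0.48). The genes past 1.5-fold in this interval were CXCL8, CXCL1, CXCL3 and CXCL2, all members picked from this contrast, with dim genes lying between them.

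**Figure D3:**
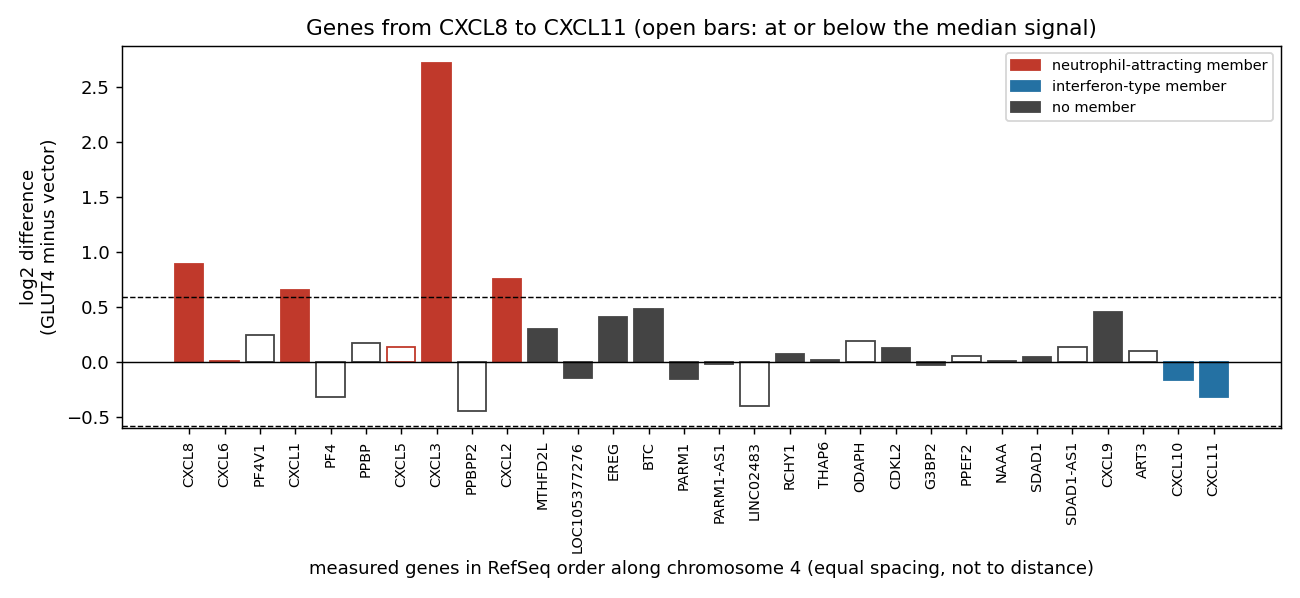
The log2 difference (GLUT4 minus vector) of the 30 measured genes from CXCL8 to CXCL11, at equal spacing in their order along chromosome 4. Red and blue bars are members, dark bars are other genes, open bars are genes at or below the median signal, and dashed lines mark 1.5-fold. The bars past a dashed line are CXCL8, CXCL1, CXCL3 and CXCL2.

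The other chemokine genes are those left after the members were picked from this contrast. Of 34 other chemokine ligands, 29 were measured, 6 of these above the median signal, and none passed 1.5-fold. Over all genes 1.84% were more than 1.5-fold higher and 1.55% lower, so none among so few genes is near that share. Their median difference was -0.05, with a range from -0.36 to 0.45. The ligands that read above 100 on both arrays were CXCL16, a membrane-anchored ligand, at 168 and 148, and CCL28, a mucosal chemokine, at 114 and 112. Of 23 chemokine receptors, 21 were measured, 5 of these above the median signal, and none passed 1.5-fold, which is also near that share. Receptors of the members were dim or modest, with CXCR2 at 28.7 and 22.8, CXCR1 at 81.8 and 74.9, CXCR3 at 60.6 and 49.3 and CCR6 at 7.73 and 9.15.

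A further list holds cytokines and receptors of pathways known to induce the neutrophil-attracting chemokines, together with the antagonists IL1RN and IL36RN. Of its 19 measured genes 5, among them IL1RN, were more than 1.5-fold higher and none was lower, with a median of 0.13, where 1.84% of all genes were higher. TNF, the tumour necrosis factor gene, read 27.5 and 72.7, a difference of 1.40 that came to 0.81 with the offset of 32. A single probe set measures TNF, and its vector reading lay below the median of all probe sets. The name of that probe set ends in s_at, so no TNF value is left without such probe sets. IL6, an inflammatory cytokine, read 2239 and 3776 (0.75) on its single probe set. IL1R1, the receptor of interleukin-1, read 132 and 239 (0.86) on its brightest probe set, while its dim one read 28.4 and 27.6 and the mean log2 difference of both was 0.41, within 1.5-fold. IL1RN, the antagonist of that receptor, read 40.8 and 74.6 (0.87), and was within 1.5-fold at 0.22 when its 5 probe sets were averaged and at 0.55 with that offset, and came to -0.31 on the brightest probe set left without those named x_at or s_at. LIF, at 165 and 248 (0.59), lay close to the threshold and was within it after quantile or loess scaling and with either offset. The interleukin-1 genes themselves were bright and nearly equal, with IL1A at 9419 and 10373 and IL1B at 12482 and 12657.

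Of 13 measured NF-kappaB subunits, inhibitors and kinases, 1 was more than 1.5-fold higher at its brightest probe set, against 1.84% of all genes. None was more than 1.5-fold lower. The gene that passed was the subunit gene NFKB2 at 62.2 and 94.0 (0.60), and its next probe set went the other way at 54.9 and 49.8 (-0.14). With the offset of 32 the brightest probe set came to 0.42. NFKBIZ, an inhibitor-like protein that acts with NF-kappaB at a subset of inflammatory genes, read 4388 and 6276 on its brighter probe set (0.52). The other NFKBIZ probe set read 1883 and 2928 (0.64), which was past 1.5-fold. NFKBIA and TNFAIP3, feedback inhibitors that NF-kappaB itself induces, read 7759 and 7804 (0.01) and 7699 and 8753 (0.18). Chemokine transcripts of this kind have AU-rich tails that control their decay. Of 10 measured regulators of that decay none passed 1.5-fold at its brightest probe set, against 1.84% of all genes higher and 1.55% lower. The regulator ELAVL1 read 4011 and 4005 there, but a dimmer probe set at 110 and 55.1 (-0.99) was past 1.5-fold. The other ELAVL1 probe sets came to 0.12 and -0.54. The destabilizing factor ZFP36 read 914 and 904, and the phosphatase DUSP1 read 13241 and 12620.

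Of 21 measured interferon genes, receptors and signal transducers, 1 was more than 1.5-fold lower and none higher, against 1.55% and 1.84% of all genes. The median of these 21 genes was -0.07. The lower gene was SOCS3, a feedback inhibitor of cytokine signalling, at 1526 and 959 (-0.67). It came to -0.35 when its 4 probe sets were averaged. IRF1, a factor that acts at interferon response elements, read 496 and 452 on its brighter probe set (-0.14) and 409 and 238 on the other (-0.78), which was past 1.5-fold. IRF7 read 50.7 and 39.6 (-0.36). IFNB1 and IFNG, the genes of interferon beta and gamma, read 18.2 and 17.6 and 13.6 and 13.6.

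**Figure D4:**
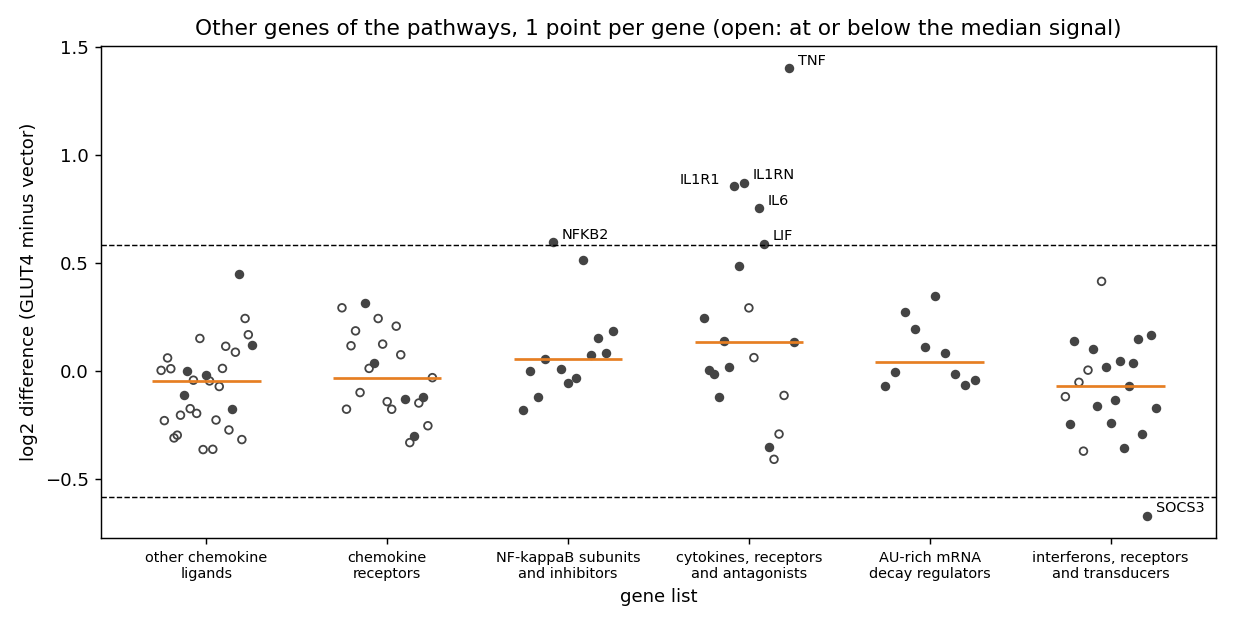
The log2 difference (GLUT4 minus vector) of every measured gene of 6 lists, 1 point per gene at its brightest probe set, with open points at or below the median signal, an orange line at each list's median and dashed lines at 1.5-fold. The genes past a dashed line are named, with 5 in the list of cytokines, receptors and antagonists and none among other chemokine ligands, receptors and decay regulators.

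**Figure D5:**
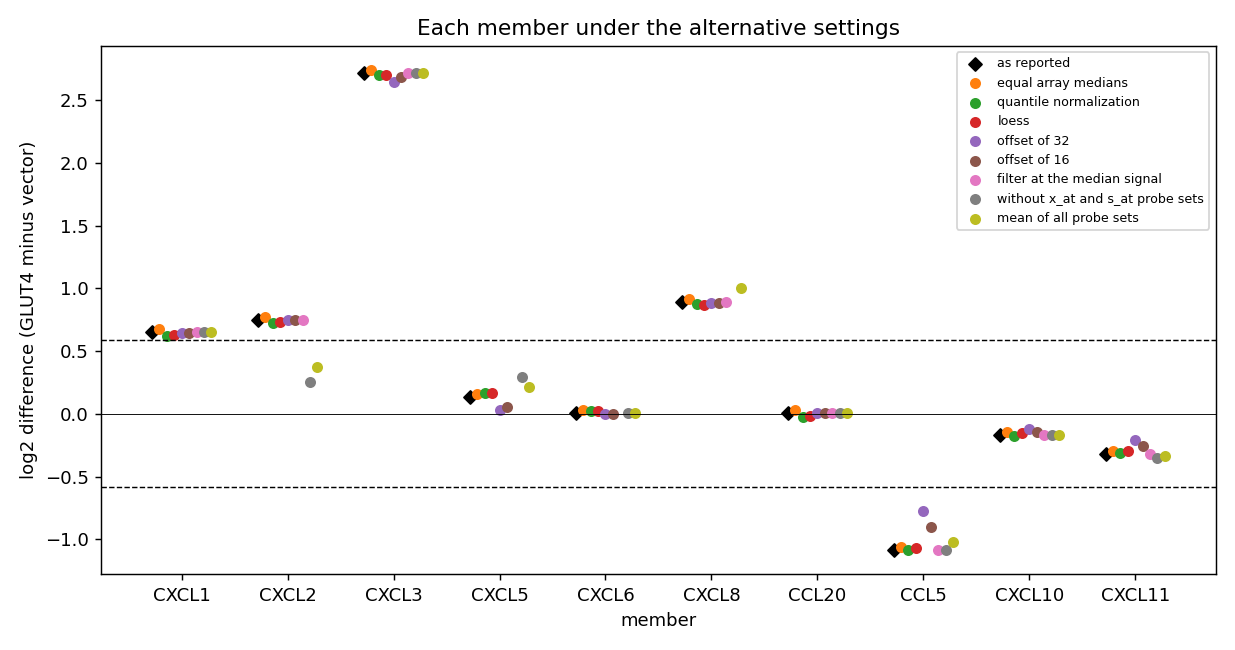
The log2 difference of each member (horizontal axis) as reported (black diamonds) and under 8 alternative settings (coloured circles), with dashed lines at 1.5-fold. CXCL2 is the member whose points lie on both sides of a dashed line, and those of CXCL3 run from 2.64 to 2.74.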

How the data were processed

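The authors extracted total RNA, labelled it with the manufacturer's kit and hybridized 1 array per cell population. The deposited values are linear intensities that had been normalized between arrays, with a median intensity of 39.7 (vector) and 39.1 (GLUT4). The methods give log2 values from GeneSpring and the submitters' notes name MAS5. How both were combined was not found in the labels or the methods. Of 54675 probe sets, 41097 name 1 gene, 1801 name several and 11777 are unnamed here. Symbols were updated through gene IDs to RefSeq (GRCh38.p14), and each gene with several probe sets was read from the brightest. The threshold of 1.5-fold is that of the methods. Precision is limited by the number of arrays. The members and gene lists were chosen with earlier results of these data known. Genes named are all members, of each list up to 4 genes past 1.5-fold with the largest differences among those above the median signal, receptors of the members, neighbours on chromosome 4, and a few chosen after their values were seen, such as LIF, NFKBIZ and IL1A. Promoters were aligned globally with Biopython 1.88 (match 1, mismatch -1, gap opening -3, extension -1). The computation was tested on simulated data. Protein sequences were not used here. Other tools were statsmodels 0.14.6, matplotlib 3.10.9, pandas 2.3.3 and numpy 2.4.6 under Python 3.11.15.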

Additional observations from a re-analysis of the deposited data

How the results depend on the processing

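The alternatives were offsets of 16 and 32, scaling to equal medians, by quantiles or by loess (fraction 0.3), keeping only signals above the median, leaving out probe sets named x_at or s_at, and averaging all probe sets of a gene. No member past 1.5-fold changed sign. CXCL5 and CXCL6 have no value above the median signal. Without probe sets named x_at or s_at, the median of the neutrophil-attracting genes was 0.28, the gap between the medians of both sides 0.63, and 2 genes and 2 probe sets were more than 1.5-fold higher, since CXCL8 drops out and CXCL2 is left with dim probe sets. With averaged probe sets that median was 0.37 and the gap 0.71. Of single members, CXCL2 came to 0.26 and 0.37 under these settings, and CCL5 to -0.77 with the offset of 32. All other values of the members and of their group medians, gaps and counts moved by less than 0.20, the SD estimated for 1 probe set from pairs of a gene, or stayed within 1.5 times the count. The median of the interferon-type genes ran from -0.35 to -0.21, with 1 gene more than 1.5-fold lower throughout. No paired analysis was possible because each group has 1 array, and no array could be left out.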

Other observations

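The letters searched in the member promoters were also counted over the genes measured on the arrays, leaving the members out. Of 10440 such genes with a promoter entry and a signal above the median, 2.37% were higher and 1.91% lower with GLUT4 by more than 1.5-fold. Of the 345 of these with kappaB letters, 14 were higher (4.06%) and 7 lower (2.03%), with a median difference of -0.01. Of the 400 with the interferon response letters, 11 were higher (2.75%) and 20 lower (5%), with a median of -0.03. The medians lay near that of all these genes, at 0.00, and a median says little about a small share of genes. Whether the letters had a part in any difference was not tested. With the interferon response letters the share lower, 5%, stood above 1.91%, and with kappaB letters the share higher, 4.06%, stood above 2.37%. Those shares rest on 20 and 14 genes. These counts come from 1 array per group, carry no test, and were chosen after the member values were seen.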
